A study of Mus musculus with 49 samples.

Results

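Microglia, the resident macrophages of the brain, express in undisturbed tissue a set of genes often called their homeostatic signature. Expression of 9 such genes, P2ry12, P2ry13, Gpr34, Cx3cr1, Csf1r, Tmem119, Siglech, Olfml3 and Sall1, was followed in the neocortex of mice with neuronal TDP-43 pathology. They were chosen by symbol, all 9 were among the 45252 rows of the count table, and all 9 were among the 18220 genes with enough counts to be tested.

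Most of these genes encode surface proteins that read signals from neighbouring cells. P2ry12 and P2ry13 are receptors for ADP, Gpr34 is a receptor for lysophosphatidylserine, Cx3cr1 is the receptor for the neuronal chemokine fractalkine (Cx3cl1), and Csf1r is the receptor for Csf1 and Il34, on which microglia depend for survival. When microglia react to injury or protein aggregates, genes such as P2ry12, Tmem119 and Cx3cr1 are often described as falling, while genes such as Cst7 and Clec7a rise.

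RNA was taken from about 30 mg of neocortex of each of 49 mice and sequenced as 100 bp paired-end reads. Bigenic rNLS8 mice were heterozygous for NEFH-tTA and tetO-hTDP-43ΔNLS, in which the neurofilament heavy chain promoter switches on a human TDP-43 lacking its nuclear import signal, in neurons and not in microglia. Monogenic controls carried tetO-hTDP43ΔNLS without the driver. All mice were of mixed C57BL/6J and C3H/HeJ background, received doxycycline chow until 25.5 weeks of age and were killed 3 weeks later, at 28.5 weeks. The 4 groups were ctrl PBS (17 monogenic mice, 10 females and 7 males), TDP-PBS (10 bigenic mice, 4 females and 6 males), TDP10 + 12 (10 bigenic mice, 6 females and 4 males) and TDP15 (12 bigenic mice, 5 females and 7 males). TDP10 + 12 mice were immunized with peptides 10 and 12 from the glycine-rich C-terminal domain of TDP-43, and TDP15 mice with peptide 15, which carries phosphorylated serines. They received 40 µg of ovalbumin-conjugated peptide with a CpG oligonucleotide from 8 weeks of age, 5 times before and 1 time after induction, and PBS groups received PBS instead of the conjugates. Alhydrogel was the adjuvant, and whether it was given with every dose is not stated. Levels are given as CPM (counts of a gene scaled to the library total), and changes as log2 fold changes with their standard error (SE) from edgeR's quasi-likelihood test, called at an adjusted p-value below 0.05 over all genes tested.

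Total counts lay between 17775738 and 21033608 per mouse, so that 3 counts equalled 0.143 to 0.169 CPM and none of the 9 genes was near this floor. The mouse gene Tardbp was 118.3 ± 14.1 CPM in TDP-PBS and 145.9 ± 9.27 CPM in ctrl PBS, and the neuronal gene Nefl 125.7 ± 9.14 and 250.1 ± 15.97 CPM (SD, n = 10 and 17). Reads were aligned to the mouse genome, so the Tardbp value is not a level of total TDP-43 RNA. The part of human transgene reads in it was not tested. All 8 cortex markers were detected in all 49 mice. Some libraries held RNA of neighbouring tissue, and the olfactory bulb gene Doc2g was 28.1 to 68.9 CPM in 5 of them (ctrl PBS mice 131 and 280, TDP10 + 12 mice 266 and 277 and TDP15 mouse 254) and at most 18.6 CPM in the others. Other genes of tissue next to the cortex also varied widely over the 49 mice. The choroid plexus gene Ttr was between 3.68 and 1583 CPM, Adora2a between 4.16 and 93.0 CPM, and Prl at most 80.6 CPM.

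RefSeq windows (GRCm38.p6) of 250 bases before the transcription start were at hand for 6 of the 9 genes. Those of Siglech and Olfml3, which rose, and of P2ry13, which did not pass the test, are shown with the core GAGGAAG of the binding site of PU.1, a macrophage transcription factor, in capitals. They lie at chr3:59210883-59211132 (P2ry13, minus strand), chr3:103738002-103738251 (Olfml3, minus strand) and chr7:55767934-55768153 (Siglech, plus strand, without the exonic end of the window).
P2ry13: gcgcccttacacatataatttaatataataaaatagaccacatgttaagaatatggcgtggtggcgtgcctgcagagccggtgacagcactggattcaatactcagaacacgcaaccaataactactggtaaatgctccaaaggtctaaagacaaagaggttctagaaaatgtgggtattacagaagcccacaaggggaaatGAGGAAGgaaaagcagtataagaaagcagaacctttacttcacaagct
Olfml3: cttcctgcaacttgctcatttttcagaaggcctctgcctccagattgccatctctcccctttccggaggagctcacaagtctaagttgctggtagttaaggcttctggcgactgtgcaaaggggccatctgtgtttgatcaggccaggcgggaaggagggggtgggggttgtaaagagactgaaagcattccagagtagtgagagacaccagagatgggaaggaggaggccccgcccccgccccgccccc
Siglech: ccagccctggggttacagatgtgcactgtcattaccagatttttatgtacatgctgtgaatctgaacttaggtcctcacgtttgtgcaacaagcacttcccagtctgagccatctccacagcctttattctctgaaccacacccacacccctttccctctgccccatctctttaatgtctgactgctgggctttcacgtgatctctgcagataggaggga
The search covered both strands of the whole windows, 8 in all with 3 for Sall1, exonic bases included. The windows of P2ry12 and Cx3cr1 and 2 of the 3 of Sall1 lie wholly within annotated exons or the gene itself, so they do not lie upstream of every annotated start. With this limit, the PU.1 core was present in 1 of the 6 genes, P2ry13, 48 bases before its start, and in 10.6% of 32851 windows of this length. The MAF core TGCTGA was present in 0 of the 6 genes and in 16.1% of all windows, and the core of the interferon-stimulated response element in 0 of the 6 and in 2.98%. A match describes letters in a window and is not a bound site.

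In control cortex the 9 genes differed in level. Per kilobase of merged exons, Csf1r was highest with 14.1 ± 1.12 CPM per kb (SD, n = 17), followed by P2ry12 with 11.9 ± 1.01 and Cx3cr1 with 8.19 ± 0.493. Sall1 with 7.36 ± 2.34 and Tmem119 with 7.17 ± 0.524 CPM per kb differed by less than their spread, as did Siglech with 4.29 ± 0.517 and P2ry13 with 4.27 ± 0.490. Gpr34 was lowest with 2.28 ± 0.371 CPM per kb. Olfml3 had 4.48 ± 0.973 CPM per kb over the 5.465 kb of exons in GENCODE. Over its 2.608 kb from start to end in RefSeq, any introns included, it had 9.39 ± 2.04. Its place in the order thus depends on the length used, and no second length was used for the other genes.

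With TDP-43 pathology the homeostatic genes did not move as a block. In TDP-PBS against ctrl PBS, 5 of 9 rose (Csf1r, Cx3cr1, Tmem119, Siglech and Olfml3) and 0 fell, where 21.9% of all genes were called higher and 21.6% lower. The median log2 fold change was 0.36 over the 9 genes and -0.00039 over all genes tested. In bulk tissue, more cells of a type and more RNA per cell cannot be told apart. In TDP10 + 12, 4 of 9 rose (Csf1r, Cx3cr1, Tmem119 and Siglech) and 1 fell (P2ry12), where 20.8% of all genes were higher and 20% lower, and the median was 0.23 over the 9 genes and 0.0031 over all genes. In TDP15, 6 of 9 rose (the 5 genes of TDP-PBS and Gpr34) and 1 fell (P2ry12), where 23.6% of all genes were higher and 23.2% lower, and the median was 0.32 over the 9 genes and -0.0015 over all genes. These 3 comparisons share the 17 control mice.

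**Figure D1:**
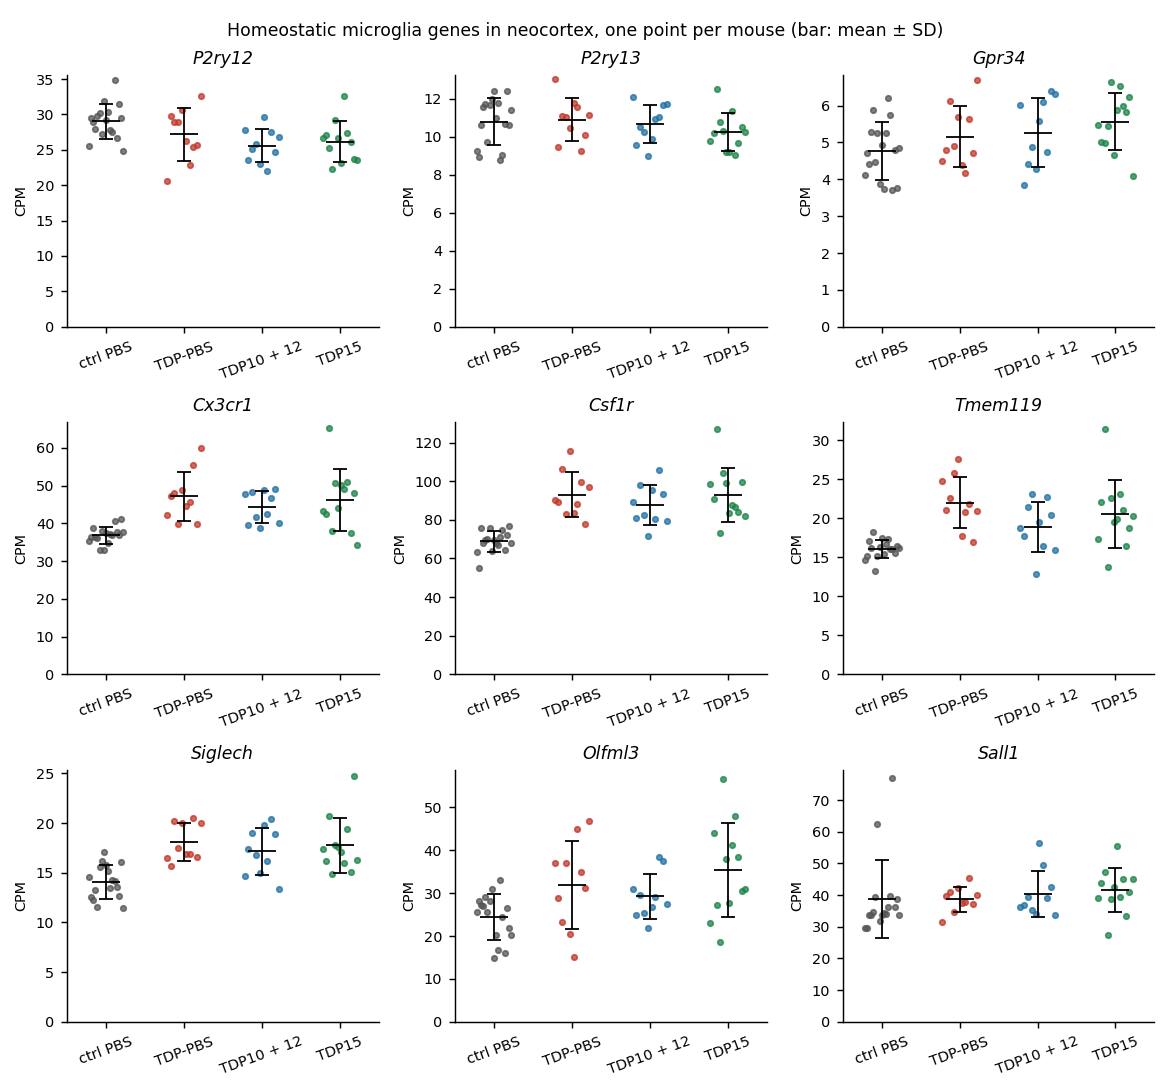
CPM of the 9 homeostatic microglia genes in each mouse (points) of the groups ctrl PBS (n = 17), TDP-PBS (n = 10), TDP10 + 12 (n = 10) and TDP15 (n = 12), with group mean and SD. All 10 TDP-PBS mice lie above every control for Csf1r, whereas no bigenic mouse lies above every control for P2ry12, and for Sall1 the highest values belong to single mice such as ctrl PBS mouse 280 with 77.1 CPM.

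Among the purinergic receptors, P2ry12, which steers microglial processes toward ADP, was lower in the immunized groups. In ctrl PBS P2ry12 ranged from 24.8 to 34.9 CPM with a median of 29.2. The medians of the bigenic groups were 27.6 CPM for TDP-PBS (range 20.6 to 32.6), 25.5 CPM for TDP10 + 12 (range 22.03 to 29.6) and 26.4 CPM for TDP15 (range 22.3 to 32.6). The groups overlapped widely, with 10 of 32 bigenic mice below every control and 0 above. Relative to ctrl PBS, the log2 fold changes of P2ry12 were -0.09 for TDP-PBS (SE 0.060, edgeR adjusted p = 0.206), -0.18 for TDP10 + 12 (SE 0.060, adjusted p = 0.0135) and -0.15 for TDP15 (SE 0.057, adjusted p = 0.026). The interval in TDP-PBS was -0.21 to 0.03, and the immunized groups differed from TDP-PBS by -0.09 (TDP10 + 12, 95% interval -0.22 to 0.05) and -0.06 (TDP15, -0.18 to 0.07). The call in TDP15 was lost without TDP15 mouse 184 (-0.13, edgeR adjusted p = 0.0564), without a filter on low counts (adjusted p = 0.0544) and with limma-voom (adjusted p = 0.0509).

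P2ry12 (59216271 to 59262985 of chromosome 3, GRCm38.p6) and P2ry13 (59207892 to 59210882) lie on the minus strand inside Med12l, which runs the other way and shares 9 exonic bases with P2ry12 and 0 with P2ry13. Med12l had 37.7 ± 3.52 CPM in ctrl PBS and 33.7 ± 3.76 CPM in TDP-PBS (-0.16, SE 0.055, edgeR adjusted p = 0.0133), and its log2 fold change was -0.11 in TDP10 + 12 and -0.17 in TDP15. The strand setting of the counting is not given in the sources used here, and the part of Med12l reads in the P2ry12 values was not tested.

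P2ry13 did not pass the test in any bigenic group. In ctrl PBS P2ry13 ranged from 8.80 to 12.4 CPM with a median of 11.0. Bigenic medians were 11.1 CPM for TDP-PBS (range 9.27 to 13.1), 10.7 CPM for TDP10 + 12 (range 8.995 to 12.1) and 10.2 CPM for TDP15 (range 9.07 to 12.5). These ranges lay almost on top of each other. Its 95% intervals against ctrl PBS were -0.11 to 0.14 for TDP-PBS, -0.14 to 0.11 for TDP10 + 12 and -0.20 to 0.04 for TDP15.

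Gpr34 on the X chromosome (13622650 to 13640859, plus strand, inside Cask on the opposite strand with 0 shared exonic bases) was called higher in TDP15 alone. In ctrl PBS Gpr34 ranged from 3.71 to 6.20 CPM with a median of 4.79. The bigenic medians were 4.85 CPM for TDP-PBS (range 4.16 to 6.69), 5.23 CPM for TDP10 + 12 (range 3.86 to 6.41) and 5.64 CPM for TDP15 (range 4.10 to 6.63). Most of the range was shared, and 6 of 32 bigenic mice lay above every control. In log2 units it differed from ctrl PBS by 0.11 for TDP-PBS (SE 0.093, edgeR adjusted p = 0.342), 0.14 for TDP10 + 12 (SE 0.093, adjusted p = 0.229) and 0.22 for TDP15 (SE 0.088, adjusted p = 0.0332). TDP15 differed from TDP-PBS by 0.11 (95% interval -0.09 to 0.31), and the call in TDP15 was lost without the 5 mice with most Doc2g (0.20, edgeR adjusted p = 0.0734) and without a filter on low counts (adjusted p = 0.071).

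Csf1r on chromosome 18 (61105572 to 61131139, plus strand) separated the groups most clearly. In ctrl PBS Csf1r ranged from 54.8 to 76.5 CPM with a median of 69.6. Bigenic mice had medians of 89.5 CPM for TDP-PBS (range 77.9 to 115.5), 85.9 CPM for TDP10 + 12 (range 71.9 to 105.7) and 89.2 CPM for TDP15 (range 72.9 to 127.0). Above every control were 10 of 10 TDP-PBS mice, 9 of 10 TDP10 + 12 mice and 11 of 12 TDP15 mice, and the exceptions were TDP10 + 12 mouse 242 and TDP15 mouse 184. Against ctrl PBS, Csf1r rose by 0.43 for TDP-PBS (SE 0.064, edgeR adjusted p = 1.8e-07), 0.35 for TDP10 + 12 (SE 0.064, adjusted p = 1.46e-05) and 0.43 for TDP15 (SE 0.061, adjusted p = 4.87e-08) on the log2 scale.

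Its ligands moved in different directions. Csf1, which glia make, rose from 25.8 ± 2.78 CPM in ctrl PBS to 36.7 ± 4.62 in TDP-PBS (0.51, SE 0.080, edgeR adjusted p = 6.82e-07), where all 10 mice were above every control. Il34, a ligand made by neurons, fell from 43.4 ± 3.51 to 37.7 ± 4.02 CPM (-0.20, SE 0.046, edgeR adjusted p = 0.000229). Both passed in the same direction in the immunized groups, with Csf1 at 0.33 and Il34 at -0.21 in TDP10 + 12 and at 0.51 and -0.27 in TDP15.

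Cx3cr1 on chromosome 9 (120048683 to 120068296, minus strand) rose as well. In ctrl PBS Cx3cr1 ranged from 32.9 to 41.2 CPM with a median of 37.0. In bigenic mice the medians were 46.5 CPM for TDP-PBS (range 39.7 to 60.1), 44.6 CPM for TDP10 + 12 (range 38.8 to 49.04) and 46.0 CPM for TDP15 (range 34.2 to 65.2). Of the bigenic mice, 24 of 32 were above every control and 0 below. The log2 rise of Cx3cr1 was 0.36 for TDP-PBS (SE 0.066, edgeR adjusted p = 1.4e-05), 0.27 for TDP10 + 12 (SE 0.066, adjusted p = 0.000936) and 0.32 for TDP15 (SE 0.063, adjusted p = 2.57e-05). Its ligand Cx3cl1 went the other way, from 925.1 ± 113.7 CPM in ctrl PBS to 663.4 ± 59.9 CPM in TDP-PBS (-0.48, SE 0.059, edgeR adjusted p = 1.76e-09), and also fell in TDP10 + 12 (-0.49) and TDP15 (-0.59). Adam10 and Adam17, which shed fractalkine from the membrane, differed by 0.03 and -0.02 in TDP-PBS (edgeR adjusted p = 0.658 and 0.866). Entpd1, an ectonucleotidase that degrades ATP and ADP, differed by 0.15 (edgeR adjusted p = 0.122).

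Tmem119 on chromosome 5 (113793729 to 113800396, minus strand), a membrane protein gene used to tell microglia from other macrophages, was among those that rose. In ctrl PBS Tmem119 ranged from 13.2 to 18.2 CPM with a median of 16.2. Medians in bigenic mice were 21.5 CPM for TDP-PBS (range 17.0 to 27.6), 19.2 CPM for TDP10 + 12 (range 12.8 to 23.1) and 20.1 CPM for TDP15 (range 13.8 to 31.4). The bigenic ranges were the wider ones, with 23 of 32 mice above every control and 1 below, TDP10 + 12 mouse 242. Tmem119 rose by 0.46 for TDP-PBS (SE 0.085, edgeR adjusted p = 1.45e-05), 0.23 for TDP10 + 12 (SE 0.085, adjusted p = 0.0238) and 0.35 for TDP15 (SE 0.081, adjusted p = 0.000262) on the log2 scale. The call in TDP10 + 12 was lost with limma-voom (0.19, adjusted p = 0.0625).

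Siglech on chromosome 7 (55768154 to 55779448, plus strand), a sialic acid-binding lectin whose upstream window is shown above, also rose in all 3 bigenic groups. In ctrl PBS Siglech ranged from 11.5 to 17.1 CPM with a median of 14.1. For bigenic mice, medians were 17.2 CPM for TDP-PBS (range 15.6 to 20.6), 17.1 CPM for TDP10 + 12 (range 13.3 to 20.4) and 17.2 CPM for TDP15 (range 14.9 to 24.7). Of 32 bigenic mice, 16 were above every control. The log2 changes of Siglech were 0.36 for TDP-PBS (SE 0.073, edgeR adjusted p = 5.65e-05), 0.28 for TDP10 + 12 (SE 0.073, adjusted p = 0.00144) and 0.33 for TDP15 (SE 0.069, adjusted p = 7.44e-05).

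Olfml3 on chromosome 3 (103735394 to 103738001, minus strand), which encodes a secreted olfactomedin-like protein, varied more between mice. In ctrl PBS Olfml3 ranged from 14.8 to 33.2 CPM with a median of 25.6. Among bigenic mice the medians were 33.0 CPM for TDP-PBS (range 15.0 to 46.9), 28.4 CPM for TDP10 + 12 (range 21.96 to 38.4) and 34.5 CPM for TDP15 (range 18.7 to 56.7). Its coefficient of variation was 21.7% in ctrl PBS and 32.3% in TDP-PBS, against 7.94% and 12.5% for Csf1r. Olfml3 differed from ctrl PBS by 0.39 for TDP-PBS (SE 0.15, edgeR adjusted p = 0.0287), 0.26 for TDP10 + 12 (SE 0.15, adjusted p = 0.163) and 0.53 for TDP15 (SE 0.14, adjusted p = 0.00125) in log2 units, and passed in TDP-PBS and TDP15. With limma-voom it no longer passed in TDP-PBS (0.32, adjusted p = 0.0875).

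Sall1 on chromosome 8 (89027242 to 89044162, minus strand), a zinc finger transcription factor that keeps microglial identity, did not pass in any group when all mice were used. In ctrl PBS Sall1 ranged from 29.7 to 77.1 CPM with a median of 34.3. Group medians in bigenic mice were 38.7 CPM for TDP-PBS (range 31.5 to 45.4), 38.0 CPM for TDP10 + 12 (range 33.8 to 56.4) and 41.9 CPM for TDP15 (range 27.4 to 55.6). The 5 mice with the highest Sall1, from 49.5 to 77.1 CPM, were the 5 with most Doc2g, and they held 6.93 to 24.5 CPM of Eomes, another olfactory bulb gene. With all mice the log2 changes of Sall1 were -0.0023 for TDP-PBS (SE 0.11, edgeR adjusted p = 0.989), 0.06 for TDP10 + 12 (SE 0.11, adjusted p = 0.719) and 0.10 for TDP15 (SE 0.11, adjusted p = 0.453). Without these 5 mice, ctrl PBS had 34.6 ± 3.07 CPM (SD, n = 15), and Sall1 was called higher in TDP-PBS (0.16, edgeR adjusted p = 0.0368) and TDP15 (0.22, adjusted p = 0.0029), while in TDP10 + 12 it was 0.10 (adjusted p = 0.241). These 5 mice are also those with the highest Sall1, and 2 of them were ctrl PBS mice and 0 were TDP-PBS mice. Leaving them out thus lowered the ctrl PBS mean by construction and left TDP-PBS as it was. The calls without them are therefore no separate support for a rise of Sall1. The part of neighbouring tissue in the Sall1 values was not tested.

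**Figure D2:**
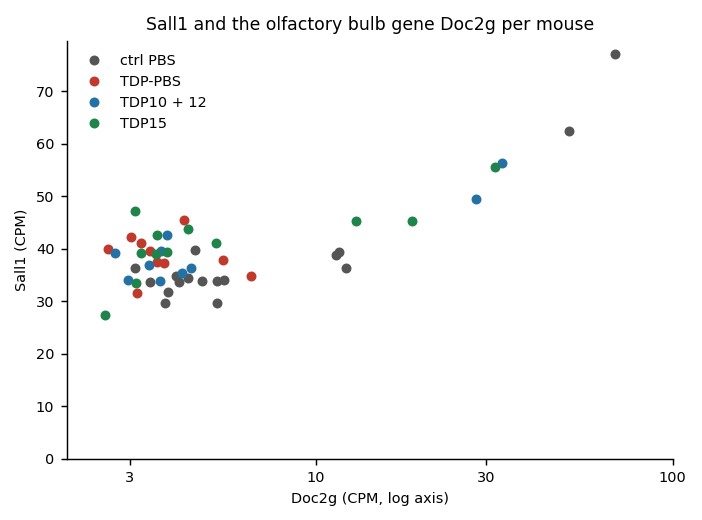
Sall1 (CPM) against the olfactory bulb gene Doc2g (CPM, log axis) in each of the 49 mice, coloured by group. The 5 mice with at least 28.1 CPM of Doc2g hold the 5 highest Sall1 values, 49.5 to 77.1 CPM.

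Whether immunization changed these genes was tested between the bigenic groups. By edgeR, 0 of 9 genes passed in each of the 3 comparisons, and 0% of all genes were called (953 genes had an unadjusted p below 0.05 in TDP10 + 12 against TDP-PBS, 552 in TDP15 against TDP-PBS and 1244 in TDP10 + 12 against TDP15). DESeq2 and limma-voom also called 0 of the 9. Tmem119 was the only one with an unadjusted p below 0.05, with -0.22 in TDP10 + 12 against TDP-PBS (95% interval -0.41 to -0.03, edgeR adjusted p = 0.926). Numerically, the largest difference was that of Olfml3 in TDP10 + 12 against TDP15 (-0.27, 95% interval -0.59 to 0.04). For Csf1r the intervals were -0.23 to 0.06, -0.14 to 0.14 and -0.22 to 0.06 in the order given, and for Cx3cr1 -0.24 to 0.06, -0.18 to 0.11 and -0.20 to 0.09.

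**Figure D3:**
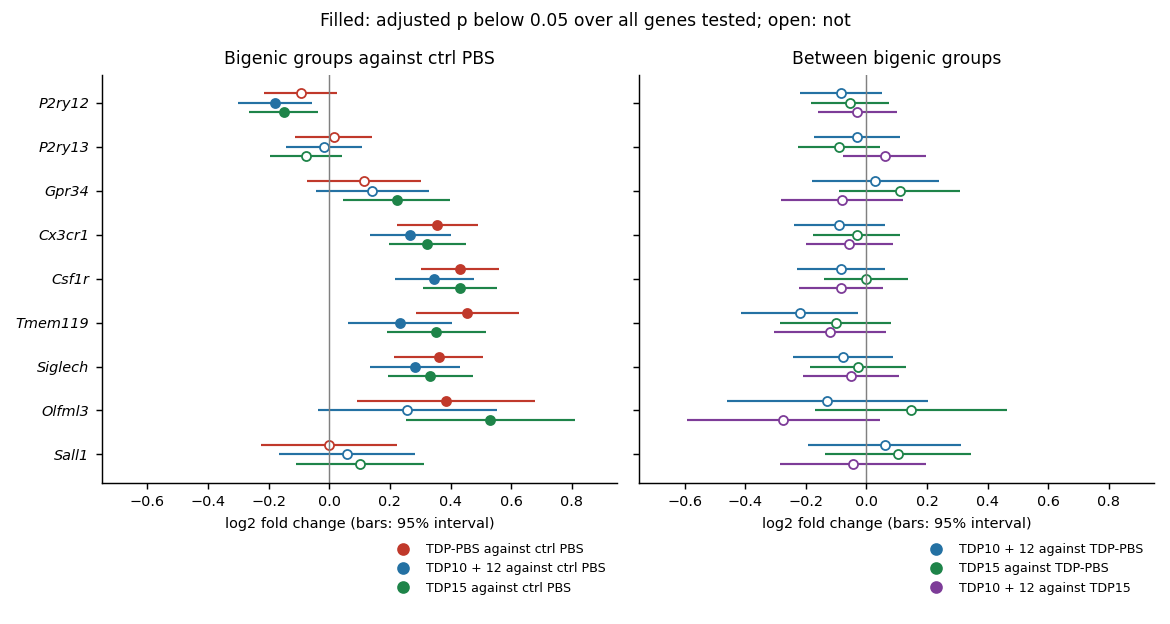
Log2 fold changes with 95% intervals of the 9 genes against ctrl PBS and between the bigenic groups, with calls at an adjusted p below 0.05 marked. Csf1r, Cx3cr1, Tmem119 and Siglech are called higher in all 3 bigenic groups, P2ry12 lower in both immunized groups, and 0 genes between bigenic groups.

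Related genes were read from lists, whose counts stand against the shares of all genes called, 21.9% higher and 21.6% lower in TDP-PBS, 20.8% and 20% in TDP10 + 12, and 23.6% and 23.2% in TDP15. Of 30 other homeostatic microglia genes, 20 rose and 2 fell in TDP-PBS, with a median log2 fold change of 0.29. The immune checkpoint receptor gene Lag3 (1.42, SE 0.21) and the matrix protein gene Sparc (0.90, SE 0.084) rose most, and Serinc3 (-0.19, SE 0.044) and Bin1 (-0.17, SE 0.048) fell. In bulk tissue other brain cells can contribute to genes of this list, whether they rose or fell, and their part was not tested. In TDP10 + 12 the counts were 14 and 2, and in TDP15 18 and 2.

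Of 12 microglia transcription factors, 7 rose and 2 fell in TDP-PBS (median 0.20), where 21.9% of all genes were called higher and 21.6% lower. The macrophage factors Irf8 (0.92, SE 0.11) and Runx1 (0.87, SE 0.17) rose most, and Etv5 (-0.61, SE 0.11) and Mef2c (-0.39, SE 0.069) fell. Other brain cells can express genes of this list, as cortical neurons do Mef2c. Their part in the rises and falls was not tested. Spi1, which encodes PU.1, rose by 0.64 (SE 0.12). In the TGF-β pathway, which sustains the homeostatic state, 4 of 14 genes rose and 2 fell (median -0.01), which is near the shares over all genes. The ligand gene Tgfb1 (0.63, SE 0.15) and the receptor gene Tgfbr2 (0.32, SE 0.059) were higher, and the integrin gene Itgav (-0.57, SE 0.064) and the signal transducer gene Smad4 (-0.15, SE 0.049) lower.

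General myeloid markers had a larger median change than the 9 homeostatic genes. Of 14 markers, 13 rose and 0 fell in each bigenic group, with median log2 fold changes of 0.97 in TDP-PBS, 0.83 in TDP10 + 12 and 1.08 in TDP15. In TDP-PBS the protease gene Ctss (1.14, SE 0.13) and the complement gene C1qc (1.11, SE 0.14) were highest, and Cd53 (0.48, SE 0.12) and the integrin gene Itgam (0.46, SE 0.085) lowest among those called. The exception was Aif1, which encodes Iba1, with 14.8 ± 2.89 CPM in TDP-PBS and 12.1 ± 2.77 CPM in ctrl PBS (0.29, SE 0.12, edgeR adjusted p = 0.0514). Of 18 disease-associated microglia genes, 14 rose and 0 fell in TDP-PBS (median 0.86), from Cst7 (5.37, SE 0.40) and Clec7a (3.88, SE 0.33) to Cd63 (0.42, SE 0.090) and Apoe (0.18, SE 0.070).

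Set against the sum of these 14 myeloid markers in the same mouse, the sum of the 9 homeostatic genes was lower in most bigenic mice. The sum of the 9 genes lay between 220.0 and 279.7 CPM in ctrl PBS, between 257.7 and 335.2 CPM for TDP-PBS, between 230.7 and 316.5 CPM for TDP10 + 12 and between 224.2 and 361.5 CPM for TDP15. The sum of the 14 markers lay between 254.6 and 349.7 CPM in ctrl PBS, between 411.7 and 649.8 CPM for TDP-PBS, between 277.8 and 623.3 CPM for TDP10 + 12 and between 312.1 and 933.8 CPM for TDP15. The log2 ratio of these sums was -0.31 ± 0.16 in ctrl PBS (SD, n = 17), -0.87 ± 0.19 in TDP-PBS (n = 10), -0.80 ± 0.20 in TDP10 + 12 (n = 10) and -0.84 ± 0.24 in TDP15 (n = 12). It was below every control in 10 of 10, 9 of 10 and 11 of 12 mice, and is a description with no test. The ratio depends on the markers summed. Their log2 fold changes in TDP-PBS ran from 0.29 (Aif1) to 1.14 (Ctss), against -0.09 to 0.46 for the 9 genes. More RNA of these markers per cell and more cells cannot be told apart here.

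The split between Csf1r and P2ry12 was visible within mice. Csf1r CPM were 1.86 to 2.78 times P2ry12 CPM in ctrl PBS, between 2.87 and 4.38 times for TDP-PBS, between 2.96 and 3.91 times for TDP10 + 12 and between 2.70 and 5.02 times for TDP15. Of the 32 bigenic mice, only 1 TDP15 mouse was not above every control. This pair was chosen after its values were seen and carries no test.

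**Figure D4:**
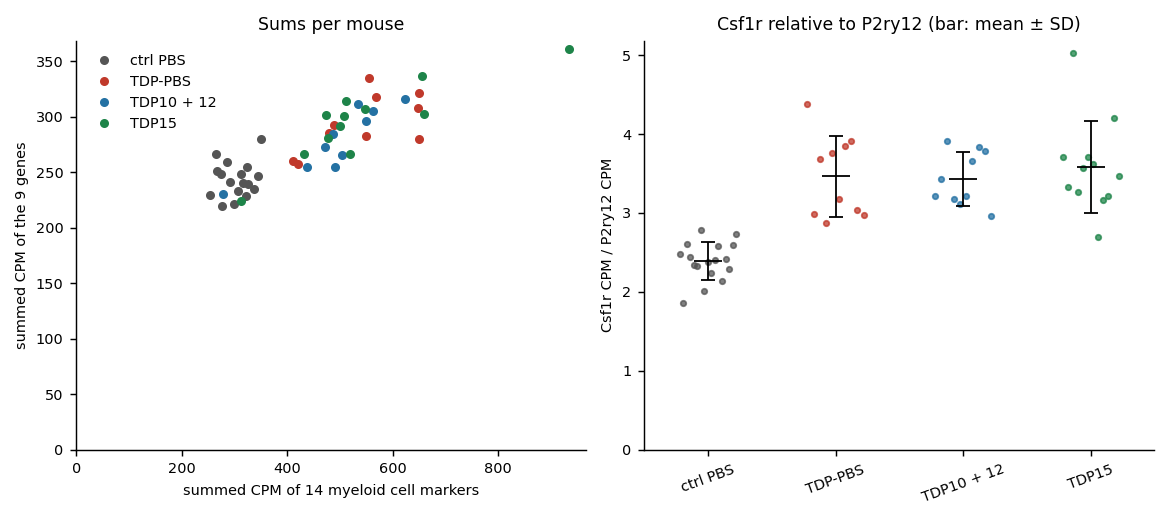
Summed CPM of the 9 homeostatic genes against summed CPM of the 14 myeloid markers, and the ratio of Csf1r to P2ry12 CPM, with 1 point per mouse, coloured or placed by group. The myeloid sum is at most 349.7 CPM in ctrl PBS and reaches 933.8 CPM in TDP15, and the ratio is at most 2.78 in ctrl PBS.

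Markers of other cell types were read beside these results. The 12 border macrophage and monocyte markers summed to between 5.94 and 25.0 CPM in ctrl PBS, between 8.03 and 24.6 CPM for TDP-PBS, between 10.8 and 19.7 CPM for TDP10 + 12 and between 10.1 and 19.1 CPM for TDP15. Of the 9 tested, 5 rose and 0 fell in TDP-PBS, with Plac8 (2.15, SE 0.38) and Lyve1 (1.28, SE 0.24) highest and Cd163 (0.68, SE 0.27) and F13a1 (0.56, SE 0.21) lowest among those called. The monocyte receptor gene Ccr2 was at most 0.790 CPM in any mouse. Cd3e, Cd3g, Cd3d and Cd8a had at most 8 counts in any mouse, so T cell RNA was close to the floor. Cd4, the only gene of the T cell list tested, was between 1.79 and 35.3 CPM over the same mice and lower in TDP-PBS (-1.19, SE 0.27), and is not read as a level of T cells. The part of border macrophages and monocytes in the values of Csf1r and Cx3cr1 was not tested.

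Of 10 neuron markers, 6 fell and 1 rose in TDP-PBS, among them Nefl (-0.99, SE 0.059), Snap25 (-0.68, SE 0.045), Map2 (-0.26, SE 0.058) and Thy1 (0.38, SE 0.046). Their sum lay between 8815 and 10620 CPM in ctrl PBS and between 7154 and 8705 CPM in TDP-PBS, and the part of this shift in the CPM of the homeostatic genes was not tested. The counts of the following short lists stand against 21.9% of all genes called higher and 21.6% called lower. Among 8 astrocyte markers Slc1a2 (-0.35, SE 0.073) and Gja1 (-0.29, SE 0.082) fell and Gjb6 (0.24, SE 0.097) rose. Of 8 oligodendrocyte markers Cldn11 (0.47, SE 0.12) rose, and of 9 endothelial and mural markers Ly6c1 (0.38, SE 0.12) rose and Rgs5 (-0.23, SE 0.061) fell. Of 8 cortex markers, 3 fell and 1 rose, and Neurod6 (-0.46, SE 0.11) and Cux2 (-0.21, SE 0.080) were among those that fell. Of the 10 tested genes of tissue next to the cortex, 4 fell in TDP-PBS (Eomes, Omp, Gh and Doc2g). Doc2g averaged 12.2 CPM in ctrl PBS and 5.81 CPM without ctrl PBS mice 131 and 280, and Eomes 2.87 and 0.597 CPM. In TDP10 + 12, 3 of these genes rose, the choroid plexus genes Ttr (2.71, SE 0.90) and Kl (1.37, SE 0.41) and also Prox1 (0.18, SE 0.068). Prox1 lay between 14.3 and 24.6 CPM in all 49 mice, and the part of neighbouring tissue in its values was not tested. In TDP15, Ttr (2.05, SE 0.86) and Prox1 (0.24, SE 0.065) rose, and Drd1 (-0.51, SE 0.21) and Gh (-2.51, SE 0.92) fell.

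Sex was compared because the groups differ in their share of females. In the 27 PBS-treated mice, 0 of 9 genes had a genotype by sex interaction past the threshold by edgeR, and 0% of all genes (0 of 17363, with 1097 at an unadjusted p below 0.05 and 0 by DESeq2). Cx3cr1 had the smallest unadjusted p of the 9 (edgeR adjusted p = 0.741), with 0.54 in females (SE 0.064) and 0.23 in males (SE 0.062). P2ry12 had 0.07 in females (SE 0.085, edgeR adjusted p = 0.599) and was called lower in males (-0.22, SE 0.080, edgeR adjusted p = 0.0354), with an adjusted p of the interaction of 0.746. Siglech, the other gene of the list with an unadjusted p below 0.05, had 0.51 in females and 0.24 in males (edgeR adjusted p of the interaction 0.786). Between females and males of all groups, 0 of 9 genes passed by edgeR or DESeq2, and 0.0933% of all genes did by edgeR. X-linked Gpr34 was the only one with an unadjusted p below 0.05 (0.23 higher in females, SE 0.061, edgeR adjusted p = 0.321). Its female and male means were 4.88 and 4.61 CPM in ctrl PBS, 5.81 and 4.72 in TDP-PBS, 5.89 and 4.33 in TDP10 + 12, and 6.04 and 5.23 in TDP15.

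Covariation between the 9 genes was described by Pearson's r of log2 CPM over mice, with no test, since the values of a mouse share its library. In the 17 ctrl PBS mice the 36 pairs had a median r of 0.05 (-0.37 to 0.49), and 0 pairs exceeded 0.5. In the 32 bigenic mice, after subtraction of group means, the median was 0.24 (-0.24 to 0.72), and 7 pairs exceeded 0.5. Csf1r had r of 0.72 with Cx3cr1, 0.72 with Tmem119 and 0.71 with Siglech in bigenic mice, against 0.49, 0.22 and 0.16 in ctrl PBS. The neighbours P2ry12 and P2ry13 had r of -0.08 and -0.02. TDP15 mouse 126 was the highest of all mice for Csf1r (127.0 CPM), Cx3cr1 (65.2 CPM) and Tmem119 (31.4 CPM). Without it, 6 pairs exceeded 0.5 in the other 31 bigenic mice, the median r was 0.29, and Csf1r had r of 0.63 with Cx3cr1, 0.63 with Tmem119 and 0.70 with Siglech. The bigenic mice lowest for Csf1r, TDP10 + 12 mouse 242 (71.9 CPM) and TDP15 mouse 184 (72.9 CPM), were kept. Their part in these r was not tested.

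**Figure D5:**
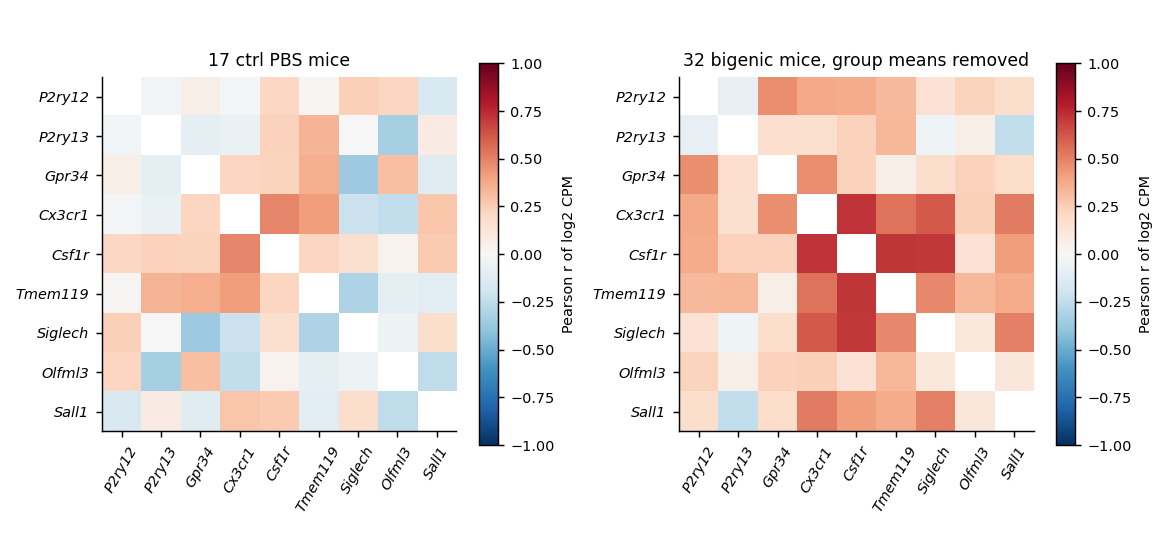
Pearson's r of log2 CPM for each pair of the 9 genes, in 17 ctrl PBS mice and in 32 bigenic mice after subtraction of group means. The highest r in bigenic mice are those of Csf1r with Cx3cr1 (0.72), Tmem119 (0.72) and Siglech (0.71), while the highest r in ctrl PBS is 0.49.

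Outside the list, the genes that followed the mean of the 9 most closely over 49 mice, after subtraction of group means, included Slco2b1 (r = 0.80), Fyb (r = 0.78), Irf8 (r = 0.77), Cd68 (r = 0.77), Ncf1 (r = 0.76), Lag3 (r = 0.76), Lyn (r = 0.76), Laptm5 (r = 0.76) and Cyth4 (r = 0.76). All of these were called higher in TDP-PBS, where 21.9% of all genes were. They were picked from these same data for following the 9 genes, so their calls are no separate result. Slco2b1, a transporter gene, rose from 21.8 ± 2.51 to 26.8 ± 3.32 CPM (0.29, SE 0.075, edgeR adjusted p = 0.00116).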

How the data were processed

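The authors deposited raw counts of reads per gene and mouse, without normalization, for reads aligned to GRCm38.p6. The submitters' processing notes name HISAT, HISAT2, Bowtie, Bowtie2, RSEM and mm10 with no role, so the counts may be rounded estimates. Annotation and strand setting are not given in the sources used here. The 9 genes and all lists were chosen with earlier results of these data known.

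Low genes were removed with filterByExpr (minimum count 10, minimum total 15). After TMM scaling, 1 model per gene for the 49 mice, without covariates, was fitted with glmQLFit and tested with glmQLFTest (edgeR 4.0.16, R 4.3.3), two-sided, with Benjamini-Hochberg adjustment and 95% intervals. Log2 CPM used a prior count of 2, and lengths came from GENCODE vM21. Each mouse is a separate animal. Labelled sex matched Xist and Ddx3y in 49 of 49 mice, and no library was a copy of another of its group (smallest chi-squared per df of any pair in a group, 7.24). Pairs across groups were not compared. Floors of 3 counts cover counting error only.

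Named were the 9 genes, their ligands, Aif1, the 10 genes most like them and, of each list, the 2 highest and 2 lowest log2 fold changes among genes called in TDP-PBS. Other genes (Spi1, Tardbp, overlapping genes, markers with low counts, genes of neighbouring tissue in the immunized groups) were added after their values were seen. Some genes that this rule names are not reported here. Alternatives were other size factors, filters, a sex term, fits of 2 groups, 2 surrogate variables (sva 3.50.0), limma-voom (limma 3.58.1) and DESeq2 1.42.0. Leaving out the 5 mice with most Doc2g, TDP15 mouse 126 or 184, or TDP10 + 12 mouse 242 was added after seeing the data. The steps were tested on simulated data.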

Additional observations from a re-analysis of the deposited data

How the results depend on the processing

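For the 9 genes, 763 of 792 alternative values over 72 results kept direction and side of the threshold, 7 lost the call, 1 gained it (Sall1 in TDP15 against ctrl PBS without the 5 Doc2g mice, 0.22) and 21 changed sign. Sall1 in TDP-PBS against ctrl PBS was 0.00052 with upper-quartile factors, 0.00155 without a filter, 0.00344 with at least 10 counts in every mouse, 0.012 with sex, 0.00828 with 2 groups, 0.022 with surrogate variables, 0.079 with limma-voom, 0.16 without the 5 Doc2g mice, where it also gained a call, and -0.00225 to 0.00901 with single mice left out. P2ry13 was -0.00712 in TDP-PBS against ctrl PBS and 0.000292 in TDP10 + 12 against TDP-PBS with limma-voom, and -0.017 to 0.019 in TDP10 + 12 against ctrl PBS with single mice left out. In TDP10 + 12 against TDP-PBS, Gpr34 was -0.022 with sex, -0.018 with surrogate variables and -0.012 without the 5 mice, and Sall1 -0.057 without them. Csf1r in TDP15 against TDP-PBS was 0.000212 with 2 groups, 0.00016 with surrogate variables, 0.013 without the 5 mice and -0.049 to 0.027 with single mice left out. Tmem119 in females against males was -0.000503 without a filter. Genes called over the whole table, 0 by edgeR, were 1 without a filter and 2 with limma-voom in TDP10 + 12 against TDP-PBS, and 1 without a filter, 2 with 2 groups and 2 with DESeq2 in TDP10 + 12 against TDP15. Between sexes, 17 genes became 53 without a filter, 11 with at least 10 counts and 28 with DESeq2. The cause was not tested. No paired analysis was possible because the groups share no replicate numbers and the labels used here give no litter or other pairing of the mice.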
